A study of Mus musculus with 48 samples.

Results

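Tight junctions seal the space between epithelial cells. The 9 genes described here encode 4 claudins (Cldn3, Cldn4, Cldn7 and Cldn18), the membrane proteins occludin (Ocln) and junctional adhesion molecule A (F11r), and the cytoplasmic plaque proteins ZO-1 (Tjp1), ZO-3 (Tjp3) and cingulin (Cgn). They were chosen by gene symbol out of 20738 genes on the array, and each is represented by the probe with the highest mean over all 48 arrays. Cldn4 and Ocln have a further probe each, and the other 7 have 1.

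The arrays hold RNA of cultured cells of 2 kinds, both isolated from 8 C57Bl/6J mice. AECII are type II cells of the alveolar epithelium, and PASMC are smooth muscle cells of the pulmonary arteries. Each cell type has 3 groups of 8 arrays. In the 18mg group the cells received 15% e-cigarette vapour extract (ECVE) for 24 h, made of a liquid whose nicotine content was 18 mg/ml. In the 0mg group the liquid contained 0 mg/ml nicotine, and the control group (Ctrl) is labelled room air. AECII were exposed 24 h after isolation, and PASMC were grown on and seeded into passage 1, so the cultures differ in age and medium as well as in cell type. The labels do not tie an array number to a mouse, so the extract comparisons were fitted unpaired. Where arrays of different groups share a mouse, such a fit counts the spread between mice as error. The p-values measure the spread between arrays, and the number of arrays limits the precision.

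Claudins are membrane proteins with 4 passes through the membrane, and the set of claudins a cell makes decides which ions and molecules pass between cells. Occludin lies in the same strands, F11r takes part in adhesion and in placing the junction, and ZO-1, ZO-3 and cingulin link the strands to actin. In the lung, Cldn3, Cldn4 and Cldn18 are the claudins best known from the alveolar epithelium, Cldn7 is found along alveolar and airway epithelium, and smooth muscle is not known to form tight junctions. Factors of the Snail and Zeb families are known to repress claudins, occludin and E-cadherin through E-box sequences, and Grainyhead-like factors are known from mouse epithelia to activate claudin genes.

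Promoters of 5 of the genes are shown because the text below sets both kinds of factor beside the 9 genes. Each line runs 5′ to 3′ on the gene's strand, from 250 bases before to 50 bases after a start site, from RefSeq (GRCm38.p6). Capitals mark the E-box (CAGGTG, or CACCTG on the other strand), the GC box (GGGCGG or CCGCCC) and, in Cgn, the Grainyhead-like core. Every line shown holds such a match. A further promoter of Cldn7 and the promoters of Cldn18 hold none and are not shown. Cldn3 lies at chr5:134985964-134986263 (plus strand), Cldn4 at chr5:134946885-134947184 (minus strand), Cldn7 at chr11:69965171-69965470 (plus strand), Ocln at chr13:100552449-100552748 (minus strand) and Cgn at chr3:94786433-94786732 (minus strand).
Cldn3: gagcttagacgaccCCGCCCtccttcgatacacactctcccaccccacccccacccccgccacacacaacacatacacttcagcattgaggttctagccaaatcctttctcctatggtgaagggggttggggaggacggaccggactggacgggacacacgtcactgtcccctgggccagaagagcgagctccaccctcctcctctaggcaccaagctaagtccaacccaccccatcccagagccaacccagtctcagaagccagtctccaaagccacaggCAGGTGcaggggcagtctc
Cldn4: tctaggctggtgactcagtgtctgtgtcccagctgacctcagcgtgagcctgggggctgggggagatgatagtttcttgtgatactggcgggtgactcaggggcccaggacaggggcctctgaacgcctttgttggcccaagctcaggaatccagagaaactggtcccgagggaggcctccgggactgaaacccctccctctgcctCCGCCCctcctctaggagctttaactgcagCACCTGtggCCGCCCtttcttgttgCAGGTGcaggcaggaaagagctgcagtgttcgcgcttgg
Cldn7: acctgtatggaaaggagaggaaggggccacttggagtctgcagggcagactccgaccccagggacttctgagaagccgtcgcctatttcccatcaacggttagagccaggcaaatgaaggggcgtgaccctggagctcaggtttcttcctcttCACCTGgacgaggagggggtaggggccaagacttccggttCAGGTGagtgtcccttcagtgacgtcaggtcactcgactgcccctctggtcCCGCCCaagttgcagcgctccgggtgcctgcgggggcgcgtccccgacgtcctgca
Ocln: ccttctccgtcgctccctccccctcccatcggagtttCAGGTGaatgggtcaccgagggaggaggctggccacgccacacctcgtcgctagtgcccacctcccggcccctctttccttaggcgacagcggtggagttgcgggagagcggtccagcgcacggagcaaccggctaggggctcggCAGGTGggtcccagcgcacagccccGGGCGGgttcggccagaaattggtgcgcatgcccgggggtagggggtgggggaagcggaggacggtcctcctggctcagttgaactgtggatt
Cgn: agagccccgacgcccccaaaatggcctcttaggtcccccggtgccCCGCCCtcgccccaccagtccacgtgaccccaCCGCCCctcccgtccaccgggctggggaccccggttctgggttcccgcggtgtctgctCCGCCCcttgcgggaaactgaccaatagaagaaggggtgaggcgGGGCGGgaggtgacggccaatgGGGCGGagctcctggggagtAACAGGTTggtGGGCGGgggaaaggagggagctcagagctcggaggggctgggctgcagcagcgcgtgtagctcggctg

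The Cldn4 and Cldn3 windows lie 38779 bases apart and point away from each other, so this pair of claudins are neighbours on chromosome 5. RefSeq gives 13 such windows for the 9 genes, of which the windows of Ocln overlap and share an E-box. An E-box was found on either strand in 8 of the 13 windows, belonging to 6 genes (Cldn3, Cldn4, Cldn7, Ocln, Tjp3 and F11r), against 20.2% of all 32851 mouse windows. A GC box was found in 8 windows of 7 genes, against 35.7% of all windows. The 13 windows held 45.3 to 70.3% G and C, most of them above the median of 52.7% over all windows. Shares among windows of like G and C content were not computed. The Grainyhead-like core (AACCNGTT, or AACNGGTT on the other strand, which shares the letters CAGGT with the E-box where N is A) was found in 1 window, that of Cgn, against 2.09% of all. These are letter matches and no measured sites, and a window without a match says only that these letters are not in it.

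The cultures were first checked against markers of their labelled cell type. In AECII the surfactant gene Sftpc had a log2 level of 14.33 ± 0.32 with 18mg, 14.28 ± 0.25 with 0mg and 14.33 ± 0.30 in Ctrl (SD, n = 8 each). Averaged over 11 alveolar type II markers, control AECII arrays lay between 8.55 and 9.02 and control PASMC arrays between 4.60 and 6.74. AECII arrays also carried markers of airway cells (Scgb1a1 at 15.73 ± 0.047 in Ctrl), type I cells and mesothelium (8 mesothelial markers at 8.72 to 9.91 in Ctrl, against 2.72 to 3.86 in control PASMC). Control PASMC had more smooth muscle marker RNA (array means over 9 markers of 6.78 to 7.55 in AECII and 8.82 to 10.15 in PASMC) and more of the fibroblast markers. The share of the tight junction values that these other cells supply was not tested.

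Among the PASMC arrays, RNA of Cldn7, Cldn3 and several epithelial genes was uneven. Ordered by Cldn7, the 24 PASMC arrays have their widest step between 4.14 and 5.60, with 9 arrays above it. These 9 arrays are spread evenly over the groups, as arrays 3, 5 and 7 of 18mg, arrays 1, 3 and 5 of 0mg and arrays 2, 6 and 8 of Ctrl. Some arrays of different groups read alike under different numbers. Array 5 of 18mg, array 5 of 0mg and array 2 of Ctrl had Krt8 at 9.93, 10.22 and 10.62. Their Sftpc levels were 2.00, 2.07 and 1.72. Whether such arrays share a mouse was not tested. The step was picked after the values were seen, so the arrays on either side are described by ranges. Fits without the 9 arrays were run as an alternative, and since they leave out the highest PASMC values of Cldn3 and Cldn7, they support nothing about the difference between the cell types.

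The same 9 arrays are the 9 highest for Cldn3, at 5.24 to 6.84 against 2.53 to 4.52 in the other 15. For Cgn (3.09 to 6.60, others 2.08 to 3.79) and Cldn4 (2.92 to 5.73, others 2.07 to 3.74) the 9 arrays reach higher but overlap the others. F11r, well above background throughout, also overlapped, with 8.29 to 9.39 in the 9 arrays and 7.69 to 8.91 in the others, and Tjp1 had 7.65 to 8.29 and 7.15 to 8.10. Ocln, Cldn18 and Tjp3 lay near background in most PASMC arrays, where values have no order. Cldn4 in 18 of the 24 arrays and Cgn in 17 also lay near background, so the lower parts of their ranges have no order either.

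How many of all genes have their 9 highest PASMC values in the 9 arrays was not counted, so marker counts are descriptions. Of the 10 general epithelial markers 4 had all of their 9 highest PASMC values in these arrays. They were the keratins Krt8 (8.16 to 10.62 against 2.54 to 5.83), Krt18 (9.93 or more against 7.55 or less) and Krt19 (8.99 to 9.96 against 6.44 to 8.39), and the E-cadherin gene Cdh1 (4.76 to 7.44 against 1.74 to 3.96). The other 6 did not divide the arrays this way. Spint2 overlapped, at 6.83 to 7.44 against 6.40 to 7.43, and Epcam, Rab25, Esrp1, Elf3 and Prom2 did not exceed 4.67 in any PASMC array. Of their 9 highest values, these arrays held 8 for Epcam, 7 for Rab25, 6 for Elf3, 4 for Esrp1 and Spint2 and 3 for Prom2.

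Markers of single lung cell types did not all go with this split. Sftpc ran from 1.72 to 11.82 within the 9 arrays and from 2.50 to 10.29 in the others. Of 8 mesothelial markers, Msln (8.12 to 9.41 against 2.79 to 11.50) and Upk1b (3.77 to 5.41 against 1.91 to 4.26) had 8 of their 9 highest values there, and the other 6 had 2 to 5. Of 10 type I markers, Akap5 had all 9 (5.80 to 8.26 against 1.85 to 5.08), Ager and Hopx had 7 and the others 1 to 6. Of 9 endothelial markers, Emcn had 8 (4.10 to 7.83 against 2.05 to 4.96), Pecam1 had 7 and the others 3 to 6. Of 9 airway markers, Trp63 had 8 (7.61 to 8.12 against 6.63 to 7.81), Foxj1 had 7 and the others 2 to 5. The 10 macrophage and leukocyte markers had 1 to 6. Of 9 smooth muscle markers, Acta2 (15.33 to 15.46 against 14.33 to 15.15), Myh11 and Tagln had all 9, Cnn1 had 7 and the other 5 had 5 or 6. Of 9 fibroblast markers, Col1a2 (13.96 to 15.37 against 15.24 to 15.75) and Pdgfra (8.88 to 9.91 against 10.03 to 11.04) gave none of their 9 highest values there. The same held for Dcn, Thy1, Fap and Mfap5, while Lum had 1 and Col1a1 and Pi16 had 2. The part of other cells, or of a state of the muscle cells, in these levels was not tested.

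**Figure D1:**
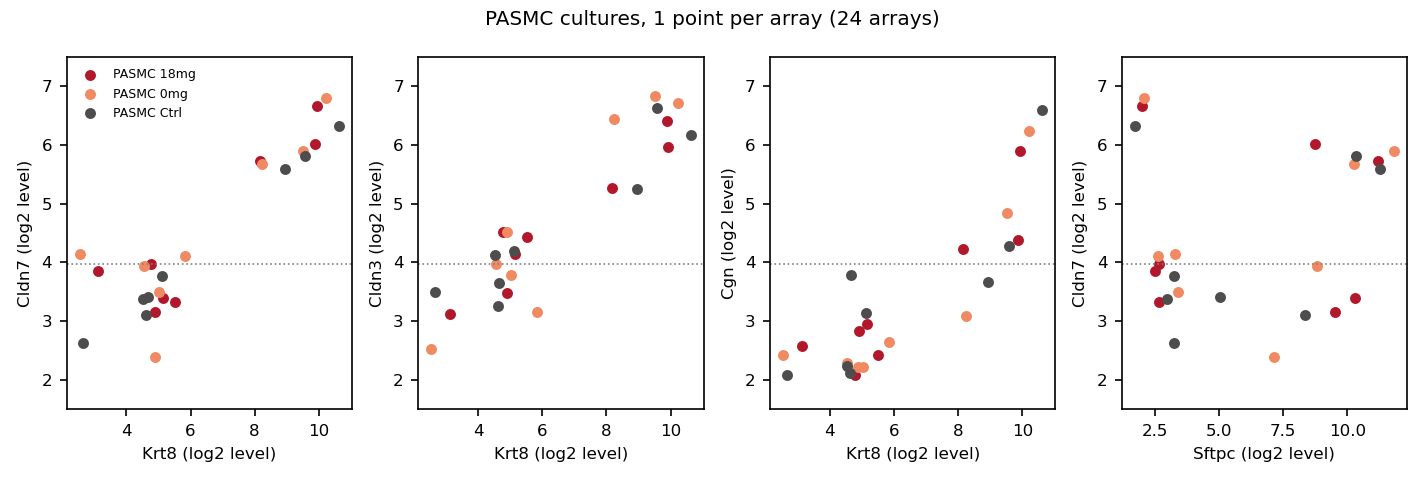
Each point is 1 of the 24 PASMC arrays. The first 3 panels plot Cldn7, Cldn3 and Cgn (log2 level) against the keratin Krt8 (log2 level), and the fourth plots Cldn7 against Sftpc; colours give 18mg, 0mg and Ctrl, and the dotted line marks 3.98, 1 log2 unit above the array median. In the first 2 panels 9 arrays, 3 per group, lie apart at Krt8 of 8.16 or more, and in the fourth the same 9 spread from 1.72 to 11.82 on the Sftpc axis.

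All 9 tight junction genes were higher in AECII than in PASMC, with 18mg, with 0mg and in Ctrl (limma, n = 8 arrays each). Over all 14775 genes tested, 28% were called higher in AECII with 18mg, 27.9% with 0mg and 27.9% in Ctrl (adjusted p under 0.05, two-sided). For each of the 9 genes every AECII array lay above every PASMC array of the same condition, which held for 13% of all genes with 18mg, 12.6% with 0mg and 13.3% in Ctrl. In Ctrl the log2 differences ran from 1.95 for Tjp1 to 8.79 for Cgn with a median of 5.95, and the median of all genes tested was -0.044. These are differences of measured means, and 5 of the 9 genes had a control PASMC mean near background. The exact permutation test of 8 against 8 arrays gave p = 0.000155 for each gene and condition, the smallest it can give. In bulk RNA of a culture, fewer epithelial cells and less RNA per cell cannot be told apart.

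A PASMC group whose mean lay under 3.98, the array median plus 1 log2 unit, is called near background, and a fold against it is given as a lower bound with each array's value raised to at least 3.98. Filtering was by a mean above 2.73 over the arrays fitted. Ocln did not reach this within PASMC and passed in the joint comparison through its level in AECII.

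**Figure D2:**
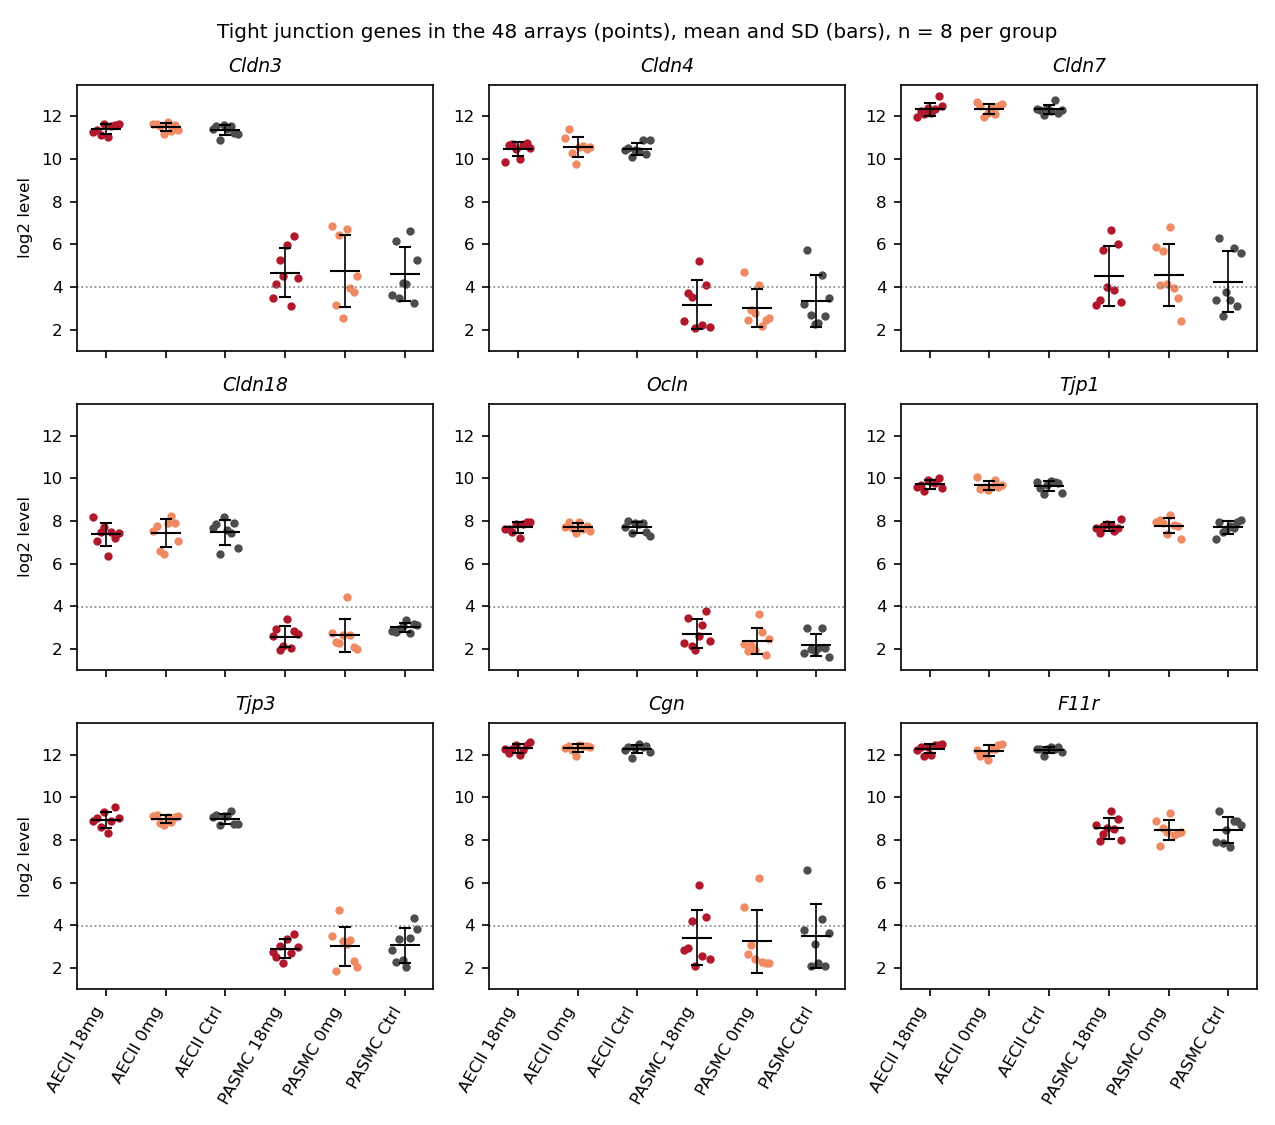
Log2 level (vertical axis) of each of the 9 genes in the 48 arrays, 1 point per array, in AECII and then PASMC groups with 18mg, 0mg and Ctrl. The bars are the mean and SD of 8 arrays, and the dotted line marks 3.98; every AECII point lies above every PASMC point of its gene, and the 3 AECII groups of a gene overlap each other, as do the 3 PASMC groups.

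Cldn3 is a sealing claudin, known in the alveolus mainly from type II cells. In AECII its lowest, median and highest log2 levels were 11.02, 11.46 and 11.66 with 18mg, 11.20, 11.56 and 11.73 with 0mg, and 10.90, 11.41 and 11.60 in Ctrl. In PASMC they were 3.12, 4.48 and 6.40 with 18mg, 2.53, 4.24 and 6.84 with 0mg, and 3.26, 4.16 and 6.64 in Ctrl. The 3 AECII groups ran over the same range, and each PASMC group held both arrays near background and arrays well above it. In Ctrl, Cldn3 was higher in AECII than in PASMC by at least 6.57 on the log2 scale, with the 3 PASMC arrays under 3.98 raised to it (log2 difference of measured means 6.76, SE 0.49, adjusted p = 1.83e-16, limma).

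Cldn4, neighbour of Cldn3 and a sealing claudin known to increase in injured alveoli, had levels of 9.88, 10.59 and 10.77 in AECII with 18mg (lowest, median and highest), 9.78, 10.57 and 11.40 with 0mg, and 10.10, 10.42 and 10.88 in Ctrl. The 0mg group was the widest of the 3 and enclosed the others. PASMC had 2.07, 2.97 and 5.22 with 18mg, 2.18, 2.64 and 4.71 with 0mg, and 2.25, 2.93 and 5.73 in Ctrl, with 6 of 8 arrays in each group near background. Control AECII were at least 74.1-fold above control PASMC (log2 means 10.48 ± 0.28 in AECII and 3.36 ± 1.22 in PASMC, SD; adjusted p = 3.64e-20, limma). The second Cldn4 probe averaged 9.95 ± 0.38 in control AECII and 3.67 ± 1.44 in control PASMC.

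Cldn7, which is found both at tight junctions and along the basolateral membrane of epithelia, showed 11.97, 12.30 and 12.95 in AECII with 18mg, 11.99, 12.43 and 12.68 with 0mg, and 12.08, 12.31 and 12.76 in Ctrl. In PASMC its values were 3.15, 3.92 and 6.66 with 18mg, 2.39, 4.13 and 6.80 with 0mg, and 2.62, 3.59 and 6.32 in Ctrl. The SD of Cldn7 was 0.20 to 0.30 in the AECII groups, and 1.40 to 1.44 in the PASMC groups, each of which held arrays near background and 3 arrays above 5. Control AECII were at least 198-fold above control PASMC, with the 5 PASMC arrays under 3.98 raised to it (log2 difference of measured means 8.08, SE 0.50, adjusted p = 8.99e-19, limma).

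Cldn18 has a lung form and a stomach form, which start from separate promoters; which of these the probe reads was not settled here. AECII gave 6.37, 7.47 and 8.18 with 18mg, 6.43, 7.64 and 8.25 with 0mg, and 6.46, 7.62 and 8.16 in Ctrl. These are the widest AECII spreads among the 9 genes, with SDs of 0.52 with 18mg, 0.66 with 0mg and 0.59 in Ctrl. PASMC gave 1.93, 2.63 and 3.38 with 18mg, 2.00, 2.47 and 4.42 with 0mg, and 2.75, 3.00 and 3.35 in Ctrl, and only 1 of the 24 arrays, in the 0mg group, exceeded 3.98. Control AECII were at least 11.3-fold above control PASMC (7.48 ± 0.59 in AECII and 3.00 ± 0.21 in PASMC; adjusted p = 1.42e-18, limma).

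Ocln, a strand protein whose loss makes junctions less stable under stress, had 7.19, 7.74 and 7.97 in AECII with 18mg, 7.43, 7.71 and 7.95 with 0mg, and 7.29, 7.79 and 7.99 in Ctrl. All 24 PASMC arrays were near background, with 1.95, 2.49 and 3.78 with 18mg, 1.71, 2.21 and 3.63 with 0mg, and 1.61, 2.00 and 2.98 in Ctrl. In the 9 arrays with high Cldn7, too, Ocln did not exceed 3.78. Control AECII were at least 13.2-fold above control PASMC (7.69 ± 0.27 in AECII and 2.16 ± 0.52 in PASMC; adjusted p = 4.58e-25, limma). The dimmer second Ocln probe averaged 4.46 ± 0.68 with 18mg, 4.10 ± 0.83 with 0mg and 4.54 ± 0.49 in Ctrl in AECII, so it read near the limit.

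F11r was measured well above background in both cell types, and its product is also known from endothelium, platelets and leukocytes. AECII had 11.97, 12.36 and 12.51 with 18mg, 11.77, 12.27 and 12.52 with 0mg, and 11.95, 12.28 and 12.37 in Ctrl. PASMC had 7.96, 8.53 and 9.38 with 18mg, 7.70, 8.39 and 9.29 with 0mg, and 7.69, 8.59 and 9.39 in Ctrl. No PASMC array came closer than 2.48 log2 units to the lowest AECII array of its condition. In Ctrl the difference was 13.6-fold (log2 3.76, SE 0.20, adjusted p = 2.28e-21, limma), so F11r, like Tjp1, differed by degree between 2 measured levels.

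Tjp1, whose product ZO-1 also sits at cell contacts of non-epithelial cells, had the smallest log2 difference of the 9 genes. Its levels were 9.39, 9.73 and 10.01 in AECII with 18mg, 9.43, 9.59 and 10.05 with 0mg, and 9.27, 9.74 and 9.88 in Ctrl. PASMC showed 7.44, 7.70 and 8.10 with 18mg, 7.15, 7.86 and 8.29 with 0mg, and 7.16, 7.71 and 8.06 in Ctrl. The groups of a cell type overlapped throughout, and within a condition the nearest AECII and PASMC arrays were 1.14 log2 units or more apart. In Ctrl the difference was 3.86-fold (log2 1.95, SE 0.13, adjusted p = 1.82e-17, limma).

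Tjp3, a ZO protein confined to epithelia in textbook descriptions, had 8.33, 8.96 and 9.55 in AECII with 18mg, 8.72, 9.07 and 9.19 with 0mg, and 8.72, 9.09 and 9.36 in Ctrl. In PASMC 22 of 24 arrays were near background, with 2.23, 2.87 and 3.62 with 18mg, 1.84, 3.19 and 4.70 with 0mg, and 2.04, 3.10 and 4.36 in Ctrl. The 18mg group of AECII was the most spread of the 3 (SD 0.38, against 0.19 with 0mg and 0.23 in Ctrl). Control AECII were at least 31.7-fold above control PASMC (9.01 ± 0.23 in AECII and 3.06 ± 0.82 in PASMC; adjusted p = 7.43e-23, limma).

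Cgn encodes cingulin, which binds ZO-1 and actomyosin at the junction. AECII showed 12.00, 12.27 and 12.60 with 18mg, 11.94, 12.39 and 12.47 with 0mg, and 11.86, 12.35 and 12.51 in Ctrl. PASMC showed 2.09, 2.89 and 5.89 with 18mg, 2.21, 2.54 and 6.24 with 0mg, and 2.08, 3.40 and 6.60 in Ctrl, where the median array of each group was near background and the highest was not. Control AECII were at least 244-fold above control PASMC (12.27 ± 0.20 in AECII and 3.49 ± 1.51 in PASMC; adjusted p = 5.51e-20, limma).

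Around the 9 genes, the wider junction machinery was split in the same comparison (control AECII over control PASMC), in which 27.9% of all genes were called higher and 31.3% lower. Of 11 other claudins bright enough to test, 5 were higher and 1 lower in AECII, and Cldnd1 was the lower one (log2 difference -0.29). Within PASMC alone 8 other claudins passed the filter, and Cldn6 entered the joint comparison through its level in AECII. In the lists below, too, fewer genes passed within PASMC than jointly. Counts of genes higher in AECII therefore include genes that the filter admitted by that level. Where arrays of the dimmer culture lay under 3.98, they were raised to it and the log2 difference is given as a bound. On that scale Cldn15 was higher by at least 3.61, Cldn6 by at least 1.97 and Cldn10 by at least 0.74. Other junction membrane proteins were higher in 8 and lower in 3 of 12 genes. Igsf5 (at least 5.76), the tricellular junction protein Marveld2 (at least 2.81) and Cxadr (4.12) were higher, whereas Jam2 (-3.51) and Jam3 (-2.63), relatives of F11r known from endothelial and mesenchymal cells, and Tmem47 (-1.16 or lower) were lower. F11r and these relatives lay on opposite sides of the comparison.

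Plaque and polarity proteins other than Tjp1, Tjp3 and Cgn were higher in 13 and lower in 2 of 20 genes. The apical polarity gene Crb3 (at least 2.59) and the atypical protein kinase C genes Prkcz (at least 3.57) and Prkci (2.16) had the smallest p-values among the higher ones, and Pard6a (-0.92) and Sympk (-0.28) were lower. Adherens junction genes, the belt below the tight junction, were higher in 9 and lower in 2 of 12, with Cdh1 (at least 7.16), Cdh3 (at least 2.20) and Ctnnb1 (0.93) higher and the mesenchymal cadherin Cdh2 (-3.39) and Nectin1 (-1.50) lower. Among genes of junction turnover 6 of 9 were higher, including the membrane proteases St14 (at least 5.74), Tmprss2 (at least 4.35) and Prss8 (at least 3.77), and the myosin kinase Mylk was lower (-2.59).

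Regulators of the epithelial junction programme ran in both directions, 11 higher and 7 lower of 20. Grhl1 (at least 4.27), Grhl2 (at least 3.60) and the splicing factor Esrp1 (at least 4.80) were higher in AECII, while the mesenchymal factors Twist2 (-4.75 or lower), Snai2 (-3.96) and Zeb1 (-2.23) were lower. Snai2 averaged 5.09 ± 0.34 in control AECII and 9.06 ± 0.18 in control PASMC, and Grhl2 averaged 7.63 ± 0.24 in control AECII and 3.03 ± 0.72 in control PASMC. The median log2 difference of measured means was 0.37 over the other claudins, 3.63 over the membrane proteins, 1.01 over the plaque and polarity list, 1.04 over the adherens list, 2.14 over the regulators and 1.97 over the turnover list, beside 5.95 over the 9 genes and -0.044 over all genes.

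**Figure D3:**
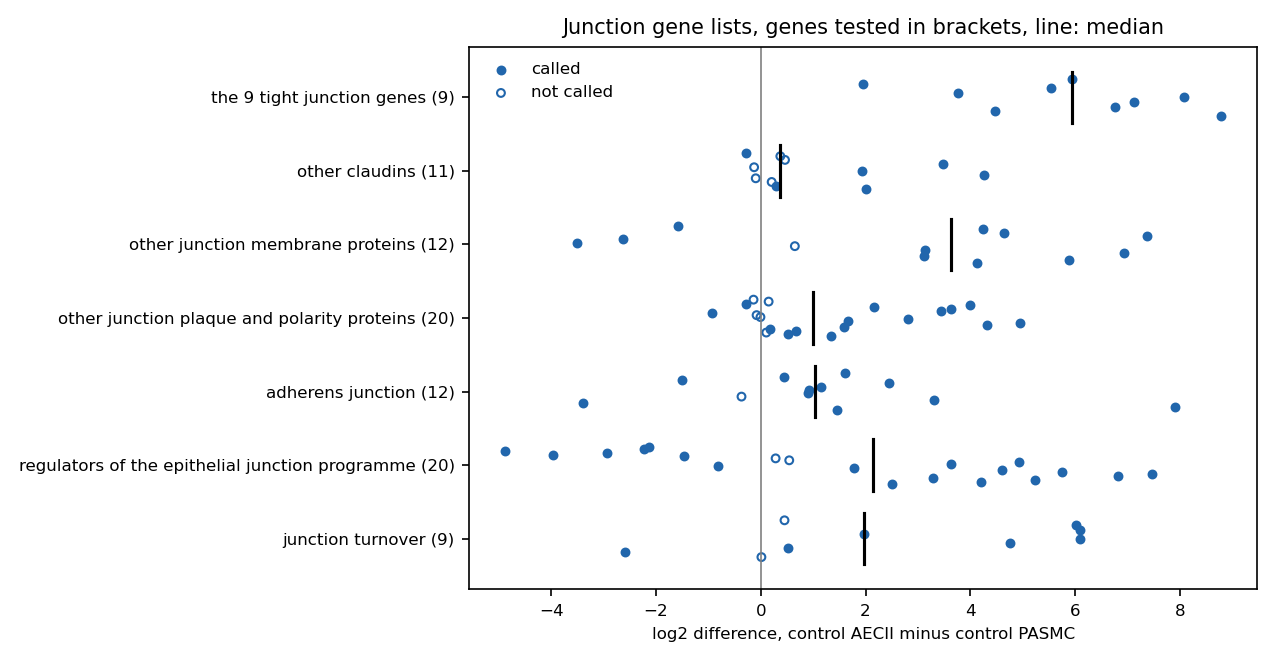
Each point is a gene, placed by its log2 difference of measured means between control AECII and control PASMC (horizontal axis), with values near background as measured; rows are the 9 tight junction genes and 6 further lists, with the number of genes tested in brackets. Filled points were called at an adjusted p under 0.05, open points were not, and the black line is the list's median. All 9 tight junction genes are filled and to the right of 0, and every other list has filled points on both sides.

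No difference between extract and control was detectable for these genes in AECII with 8 arrays per group. None of the 9 was called with 18mg over Ctrl, with 0mg over Ctrl or with 18mg over 0mg (limma, adjusted p of 0.999 or more), and 0% of the 14477 genes tested were called in each of these comparisons. At an unadjusted p under 0.05 the count was also 0 of 9 in each, where 2.36% of all genes passed with 18mg over Ctrl, 3.32% with 0mg over Ctrl and 3.09% with 18mg over 0mg. The lowest exact permutation p over the 9 genes was 0.516 with 18mg over Ctrl, 0.183 with 0mg over Ctrl and 0.361 with 18mg over 0mg. Both extracts were set against the same control arrays, so these comparisons are not independent.

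For Cldn3, AECII averaged 11.41 ± 0.24 with 18mg, 11.51 ± 0.19 with 0mg and 11.36 ± 0.24 in Ctrl. Its log2 difference of 0.15 with 0mg over Ctrl (95% interval -0.084 to 0.39, limma) was the largest of the 9 genes against control, and 6 of 8 arrays lay above the control mean. Cldn4 averaged 10.46 ± 0.33 with 18mg, 10.58 ± 0.48 with 0mg and 10.48 ± 0.28 in Ctrl, with differences of -0.021 (-0.39 to 0.35) with 18mg and 0.10 (-0.27 to 0.47) with 0mg. For Cldn7 (12.33 ± 0.30 with 18mg, 12.36 ± 0.25 with 0mg and 12.33 ± 0.20 in Ctrl) the interval was -0.26 to 0.26 with 18mg and -0.23 to 0.29 with 0mg. In these 3 claudins every interval against control lay between -0.39 and 0.47.

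Cldn18 averaged 7.37 ± 0.52 in AECII with 18mg, 7.42 ± 0.66 with 0mg and 7.48 ± 0.59 in Ctrl. Its intervals were the widest, -0.70 to 0.48 with 18mg over Ctrl and -0.65 to 0.53 with 0mg over Ctrl, so the data hold less about this claudin. Ocln (7.69 ± 0.27 with 18mg, 7.71 ± 0.18 with 0mg and 7.69 ± 0.27 in Ctrl) had intervals of -0.25 to 0.25 with 18mg over Ctrl and -0.24 to 0.26 with 0mg over Ctrl. Tjp1 (9.72 ± 0.20 with 18mg, 9.67 ± 0.21 with 0mg and 9.65 ± 0.24 in Ctrl) had -0.16 to 0.31 with 18mg over Ctrl and -0.21 to 0.26 with 0mg over Ctrl. The mean of Tjp1 was the highest with 18mg, by less than the SD of any group.

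Tjp3 (8.95 ± 0.38 with 18mg and 9.01 ± 0.23 in Ctrl, with the 0mg mean between them) had intervals of -0.34 to 0.23 with 18mg over Ctrl and -0.30 to 0.27 with 0mg over Ctrl. Cgn (12.30 ± 0.20 with 18mg, 12.33 ± 0.17 with 0mg and 12.27 ± 0.20 in Ctrl) was the most tightly bounded, with -0.18 to 0.24 for 18mg over Ctrl and -0.16 to 0.26 for 0mg over Ctrl. F11r (12.29 ± 0.21 with 18mg, 12.19 ± 0.26 with 0mg and 12.24 ± 0.13 in Ctrl) differed by 0.051 with 18mg (-0.17 to 0.27) and by -0.052 with 0mg (-0.27 to 0.17). Over the 9 genes 5 differences were above 0 with 18mg and 6 with 0mg, and in each gene the 3 groups overlapped.

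In PASMC none of the 8 genes tested was called with either extract over Ctrl or with 18mg over 0mg (limma, adjusted p of 0.999 or more). Of 14545 genes tested there, 0.0275% were called with 18mg over Ctrl, all lower, 0% with 0mg over Ctrl and 0% with 18mg over 0mg. At an unadjusted p under 0.05 the count was 0 of 8 in each, beside 4.05% of all genes with 18mg over Ctrl, 2.76% with 0mg over Ctrl and 1.94% with 18mg over 0mg. The intervals were wide where the arrays were uneven: Cldn7 averaged 4.51 ± 1.40 with 18mg, 4.56 ± 1.44 with 0mg and 4.25 ± 1.42 in Ctrl, and its interval for 18mg over Ctrl ran from -1.14 to 1.66. Cldn3 (4.67 ± 1.15 with 18mg, 4.75 ± 1.70 with 0mg and 4.60 ± 1.27 in Ctrl) had -1.30 to 1.44 for that comparison, and Cgn (3.42 ± 1.30 with 18mg, 3.25 ± 1.49 with 0mg and 3.49 ± 1.51 in Ctrl) had -1.48 to 1.35.

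The genes measured evenly in PASMC gave narrower bounds. Tjp1 averaged 7.72 ± 0.21 with 18mg, 7.78 ± 0.37 with 0mg and 7.70 ± 0.29 in Ctrl, with intervals of -0.28 to 0.33 for 18mg over Ctrl and -0.22 to 0.39 for 0mg over Ctrl. F11r averaged 8.55 ± 0.48 with 18mg, 8.47 ± 0.47 with 0mg and 8.48 ± 0.60 in Ctrl, with -0.45 to 0.59 for 18mg over Ctrl and -0.52 to 0.51 for 0mg over Ctrl. Cldn4 (3.17 ± 1.15 with 18mg, 3.01 ± 0.90 with 0mg and 3.36 ± 1.22 in Ctrl) and Tjp3 (2.90 ± 0.45 with 18mg, 3.02 ± 0.93 with 0mg and 3.06 ± 0.82 in Ctrl) were near background in all 3 groups.

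Cldn18 lay near background in every PASMC group, with means of 2.56 ± 0.50 with 18mg, 2.64 ± 0.77 with 0mg and 3.00 ± 0.21 in Ctrl. Its difference of -0.44 with 18mg over Ctrl had an unadjusted p of 0.107 in limma and an exact permutation p of 0.0418, unadjusted over the genes compared, and 1 of 8 arrays lay above the control mean. With only the 15 arrays of low Krt8 it was -0.60 with 18mg over Ctrl and -0.74 with 0mg over Ctrl (limma, unadjusted p = 0.00684 for the 18mg group and 0.00157 for the 0mg group, adjusted p = 0.630 and 1.00), on arrays picked after the values were seen. Ocln, not tested in PASMC by limma, had means of 2.71 ± 0.66 with 18mg, 2.36 ± 0.61 with 0mg and 2.16 ± 0.52 in Ctrl, and its exact permutation p was 0.0883 with 18mg over Ctrl and 0.509 with 0mg over Ctrl. Values at this level have no order, since the median of all probes lies there (2.97 to 2.98).

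**Figure D4:**
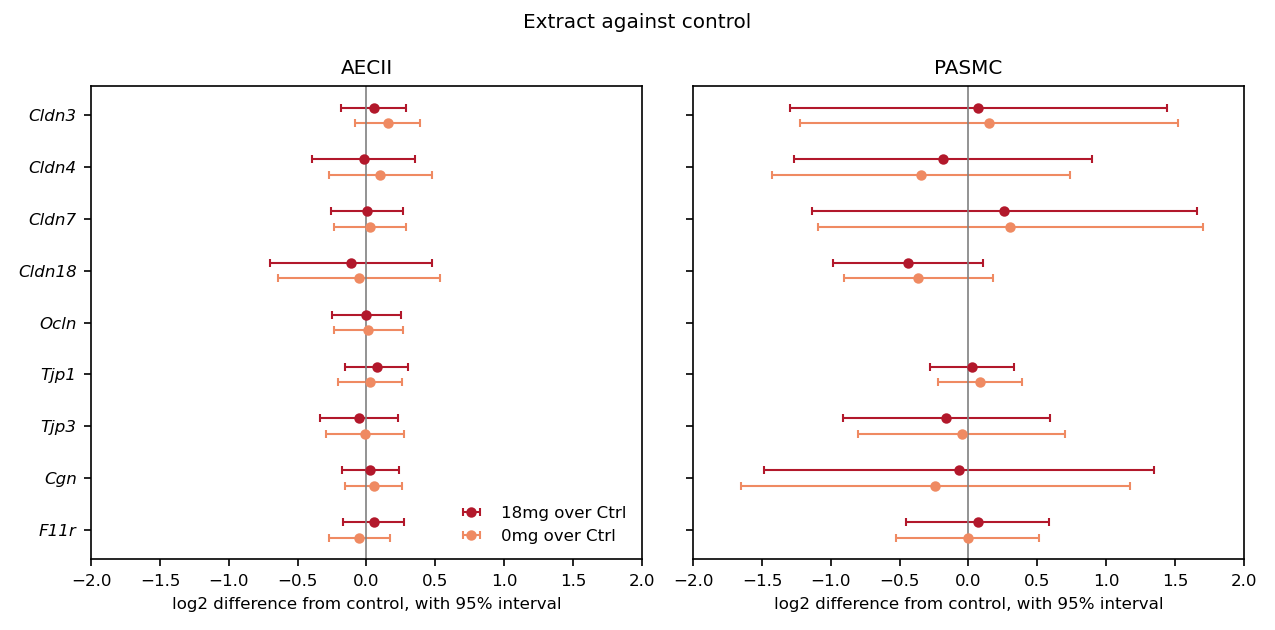
Log2 difference of the 18mg and the 0mg group from Ctrl (horizontal axis) for the 9 genes in AECII (left) and for the 8 tested in PASMC (right); points are limma estimates and bars their 95% intervals. Every interval includes 0, and in AECII all lie between -0.70 and 0.53.

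The difference of the responses between the cell types was tested in a joint fit of all 48 arrays. None of the 9 genes was called with 18mg or with 0mg (limma, adjusted p of 1.00), as was true of 0% of the 14775 genes tested in both. At an unadjusted p under 0.05 the count was 0 of 9, beside 2.59% of all genes with 18mg and 2.66% with 0mg. The largest difference with 18mg was that of Ocln (-0.55, interval -1.19 to 0.095, limma), which rests on PASMC values near background. With only the 15 PASMC arrays of low Krt8 it was -0.68 (limma, unadjusted p = 0.0136, adjusted p = 0.999). With 0mg it was that of Cldn4 (0.45, interval -0.69 to 1.59, limma). The most precise was Tjp1, with -0.32 to 0.42 for 18mg and -0.43 to 0.31 for 0mg.

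No gene of the wider junction lists was called in any extract comparison or in the difference of responses. This held for the other claudins, the membrane, plaque, polarity and adherens proteins, the regulators and the turnover genes.

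The AECII arrays within a group varied, and there the tight junction genes moved together. Deviations from the group mean were correlated over the 24 AECII arrays for the 36 pairs of the 9 genes, treating arrays as independent. All 36 Pearson correlations were above 0, from 0.14 to 0.92 with a median of 0.51, and 27 had a permutation p under 0.05 after Benjamini-Hochberg adjustment over the 36 pairs. By Spearman's rho the count was 15 of 36. Over all pairs of 14475 genes 50.7% were above 0, the median was 0.01, and 2.15% reached 0.51 or more. All arrays share one normalisation and the labels give no batch, so a common technical source was not tested.

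Cldn3 and Ocln were the closest pair (r = 0.92, rho = 0.91, adjusted permutation p = 0.00014 and 0.00024), and r was 0.91 without the 2 arrays farthest from the median of Cldn3. Ocln and Tjp3 followed (r = 0.82, rho = 0.79, adjusted permutation p = 0.00014 and 0.00024; r = 0.75 without 2 arrays), then Cldn3 and Tjp3 (r = 0.80, rho = 0.79, adjusted permutation p = 0.00014 and 0.00036; r = 0.74). Cldn7 and Tjp3 had r = 0.80 and rho = 0.81 (adjusted permutation p = 0.00014 and 0.00024; r = 0.69). At the other end, Cldn7 and Cldn18 had r = 0.14 and rho = 0.078 (adjusted permutation p = 0.51 and 0.72). The neighbours Cldn3 and Cldn4 had r = 0.51 and rho = 0.41 (adjusted permutation p = 0.020 and 0.076; r = 0.40), so these chromosomal neighbours were not the closest pair. For Cldn18 and Cldn3, r was 0.30 without 2 arrays and 0.53 with all 24 (adjusted permutation p = 0.019 for r). Leaving out the arrays farthest from the median also narrows the range, and whether that relation rests on those arrays was not tested.

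**Figure D5:**
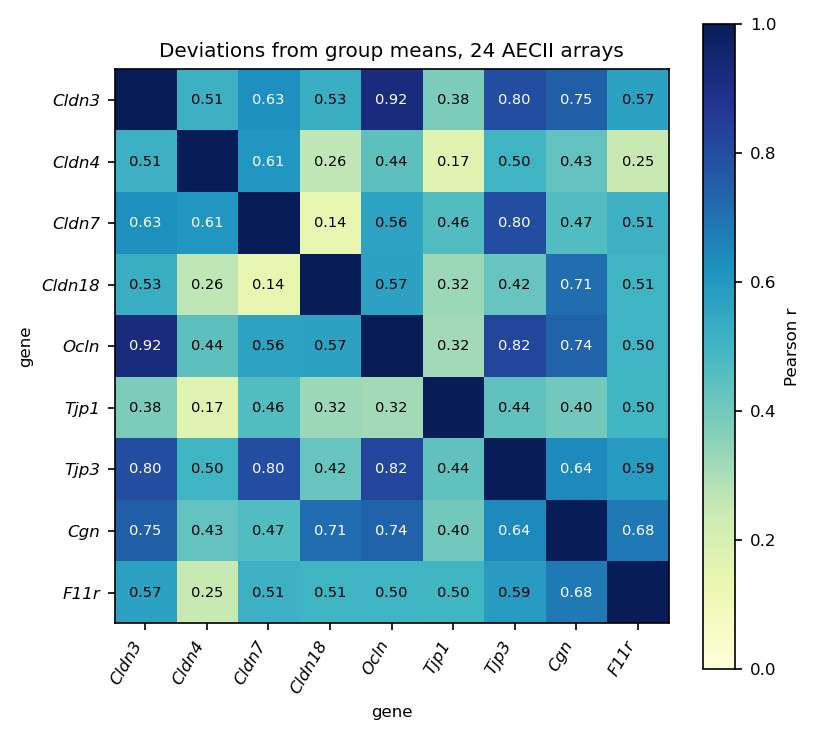
Pearson correlation (colour scale from 0 to 1, value in each cell) of deviations from the group mean over 24 AECII arrays, for each pair of the 9 genes on both axes. Cldn3 and Ocln share the highest value (0.92), and Cldn7 and Cldn18 the lowest (0.14).

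Cell type markers moved with these deviations, and the list with the highest r was not the same for each claudin. The mean of each of 9 marker lists was correlated with each of the 9 genes over the same 24 arrays (81 relations), with the same limit on the permutation p-values. Cldn7 went with the general epithelial markers (r = 0.89, rho = 0.84, adjusted permutation p = 0.00027 and 0.00054; r = 0.86 without 2 arrays) and against the mesothelial markers (r = -0.66, rho = -0.58, adjusted permutation p = 0.0041 and 0.018; r = -0.51). With the alveolar type I markers, which include Ager and Hopx, Cldn7 had r = 0.079 and rho = 0.13 (adjusted permutation p = 0.79 for r).

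For Cldn18 the highest r was with the alveolar type I markers (0.83, rho = 0.80, adjusted permutation p = 0.00027 for r; r = 0.76 without 2 arrays), and with the general epithelial markers it had r = 0.19 and rho = 0.070 (adjusted permutation p = 0.54 and 0.89). Cgn went with the alveolar type II markers (r = 0.75, rho = 0.73, adjusted permutation p = 0.00061 for r; r = 0.61) and with the type I markers (r = 0.72, rho = 0.59, adjusted permutation p = 0.0011 for r; r = 0.52). F11r also went with the type II markers (r = 0.70, rho = 0.68, adjusted permutation p = 0.0017 for r; r = 0.62). A difference between 2 of these correlations was not tested.

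An r of 0.50 in size was the smallest that passed the adjustment, and beside each count stands the share of all other genes tested that reached it with the same markers in either direction. By list, 8 of 9 genes had an adjusted permutation p under 0.05 for r with the general epithelial markers, all except Cldn18 (11.7% of other genes), and 6 did with the type II markers (9.12%). With the mesothelial markers 4 genes did, Cldn3, Cldn4, Cldn7 and Tjp3, all with r below 0 (7.82%). The counts were 4 with the airway markers (6.64%), 3 with the type I markers (10.5%), 1 with the fibroblast markers (7.89% of other genes; Tjp1, r = -0.53, rho = -0.53, adjusted permutation p = 0.029 and 0.036) and 0 with the smooth muscle (8%), endothelial (5.76%) and macrophage markers (7.6%). By rho the counts were 6 with the general epithelial, 7 with the type II, 5 with the mesothelial, 2 with the airway, 3 with the type I and 1 with the fibroblast markers. Whether the makeup of the cultures sets the levels of the junction genes was not tested.

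The genes whose deviations in AECII were most like each of the 9 were sought among 14466 genes, by Pearson r over 24 arrays, as a description. Closest to Cldn3 were Cux1 (r = 0.91), Ano1 (0.90) and Ifnlr1 (0.88), and to Ocln Ano1 (0.87), Fam102a (0.87) and Cdc42ep1 (0.87). Tjp3 was closest to the matriptase gene St14 (0.89), Ano1 (0.89) and Ntf5 (0.86), so Ano1 recurred for Cldn3, Ocln and Tjp3. Cldn4 was closest to Ccn1 (0.88), Rbp3 (0.82) and Lypd2 (0.81), and Cldn7 to Serinc2 (0.94), Eya2 (0.90) and Hid1 (0.90).

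For Cldn18 the closest were Cadm1 (0.91), Fam234a (0.90) and Sfta3-ps (0.89). For Cgn they were Tmem37 (0.89), Shisa5 (0.88) and Nrip3 (0.87), for F11r Vamp8 (0.86), Tnip3 (0.85) and Ddx17 (0.85), and for Tjp1 Wwc2 (0.83), Adnp (0.81) and DXBay18 (0.79). In PASMC the genes most like Tjp1 were Igf2r (0.85), Adam9 (0.84) and Ahnak (0.84), and those most like F11r were Gtf3c6 (0.86), Pik3cb (0.86) and Sh3bp5l (0.85), among 14530 genes. For Cldn3 they were the keratins Krt18 and Krt8 and Cotl1, and for Cldn7 Krt7, Lamb3 and Bzw2, given without r because the PASMC arrays fall into sets for these genes.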

How the data were processed

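RNA of 48 cultures was measured on single-colour Agilent arrays. The deposited values are on the log2 scale, 1 for each feature on each array. limma is listed in the submitters' processing notes, with neither a version nor a step. Array quantiles coincide (median 2.97 to 2.98), as after quantile normalisation of the log2 values by the authors, which no source used here states. Original intensities were not analysed here. Of 62976 features 31465 carry 1 gene name, brought to RefSeq symbols. The 28 missing values touch none of the 9 genes.

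For each gene the feature of highest mean over the 48 arrays was used. Genes with a mean above 2.73 over the arrays fitted were tested, 14477 in AECII, 14545 in PASMC and 14775 in the joint fit. limma 3.58.1 (R 4.3.3) was fitted by lmFit and eBayes with 1 coefficient per group, on the 24 arrays of a cell type or on all 48. Its p-values are two-sided and were adjusted over the genes tested (Benjamini-Hochberg), and calls needed an adjusted p under 0.05. Single genes were also compared by exact permutation of 16 arrays (12870 ways), and correlations by 100000 permutations.

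Named genes are the 9 members, of the further lists the 3 called with the smallest p per direction between the control cultures, and the 3 genes most like each member. The members and lists were chosen with earlier results of these data known. Markers and arrays in the account of uneven PASMC arrays, and Cldn12, Cldn15 and Cldn23 in the closing section, were picked after their values were seen. Alternatives were no filter or the 50th percentile, median centring, the mean of all probes, only the groups compared, eBayes with trend and robust fitting, the replicate number as a block, leaving out each array and, added later, only PASMC arrays with low Krt8. The procedure was tested on simulated data. Promoters came from RefSeq (GRCm38.p6), and were matched by symbol for all 9 genes. Some genes of the lists were not analysed here.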

Additional observations from a re-analysis of the deposited data

Results flagged for a closer look

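In each of the 6 groups the highest and lowest of the 8 arrays were compared with the nearest of the others for each of the 9 genes. Of these 54 tests, 3 exceeded Dixon's 95% critical value for 8 arrays (gap over range 0.539, 0.693 and 0.575 in the cases of Cldn7, Cldn18 and Cgn), where chance gives about 1 in 20.

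Cldn7 had a log2 level of 12.76 in array 6 of control AECII, and the other 7 arrays lay between 12.08 and 12.39. Cgn, the plaque protein cingulin, had its lowest AECII 0mg level in array 4, at 11.94, with the others between 12.25 and 12.47. Cldn18 had 4.42 in array 5 of the PASMC 0mg group, with the others between 2.00 and 2.74. This last array is 1 of the 9 PASMC arrays with high Cldn7 (6.80 there) and Krt8 (10.22 there), and without those 9 arrays the 0mg group of Cldn18 differed from Ctrl by -0.74 in place of -0.36 (limma, adjusted p = 1.00 in both, unadjusted p = 0.00157 without the 9 arrays, which were picked after the values were seen).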

How the results depend on the processing

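The counts of the 9 genes called were the same in all 11 comparisons under each alternative that gave them: 9 of 9 between the cell types in each condition and 0 with the extracts or in the difference of responses. Leaving out the 9 PASMC arrays of high Krt8 removes the highest PASMC values of Cldn3 and Cldn7, so the 9 of 9 calls there say nothing about stability. The numbers of the labels did not pair the arrays: same-numbered arrays of 2 groups correlated at -0.21 to 0.28 in AECII (5 of 24 pairs over 0.1) and at -0.40 to 0.62 in PASMC (9 of 24). With the replicate number as a block the counts were again 9 and 0. Each group holds each number once, so the block cannot change a difference of group means or its sign. The best match of an array was the one with its own number in 2 of 24 AECII cases and 5 of 24 PASMC cases. A pairing of arrays under other numbers was not fitted. Under the exact permutation test Cldn18 in PASMC (18mg over Ctrl, -0.44) had p = 0.0418, unadjusted. The alternatives without a filter, with the 50th percentile, with only the groups compared and with trend and robust eBayes leave each difference of group means unchanged. They could turn no sign and bear only on the p-values and calls.

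Signs turned only among differences that were not called, and the cause was not tested. With the mean of all probes, AECII Cldn4 was 0.0209 for 18mg over Ctrl, and Ocln was -0.21 for 0mg over Ctrl and 0.17 for 18mg over 0mg. With median centring, Cldn7 was -0.00481 for 18mg over Ctrl in AECII and Cldn3 was -0.00853 for the 0mg response. With the 15 PASMC arrays of low Krt8, Cldn3 was -0.15 and F11r 0.0391 for 0mg over Ctrl, Cldn18 was 0.14, Cldn3 0.35, Tjp1 0.0871 and Tjp3 0.0840 for 18mg over 0mg, and Tjp1 was -0.0572 for the 18mg response. Leaving out 1 array at a time turned the sign of 53 differences in at least 1 case. For AECII 18mg over Ctrl the ranges were -0.013 to 0.11 for Cldn3, -0.075 to 0.061 for Cldn4, -0.085 to 0.064 for Cldn7, -0.26 to 0.032 for Cldn18, -0.059 to 0.071 for Ocln, -0.14 to 0.034 for Tjp3, -0.031 to 0.072 for Cgn. For AECII 0mg over Ctrl the ranges were -0.016 to 0.21 for Cldn4, -0.017 to 0.091 for Cldn7, -0.20 to 0.084 for Cldn18, -0.046 to 0.055 for Ocln, -0.031 to 0.058 for Tjp1, -0.053 to 0.038 for Tjp3, -0.0080 to 0.11 for Cgn, -0.10 to 0.0079 for F11r. For AECII 18mg over 0mg the ranges were -0.11 to 0.025 for Cldn7, -0.19 to 0.089 for Cldn18, -0.052 to 0.059 for Ocln, -0.13 to 0.047 for Tjp3, -0.078 to 0.020 for Cgn. For PASMC 18mg over Ctrl the ranges were -0.18 to 0.36 for Cldn3, -0.48 to 0.15 for Cldn4, -0.046 to 0.56 for Cldn7, -0.052 to 0.076 for Tjp1, -0.31 to 0.023 for Tjp3, -0.42 to 0.38 for Cgn, -0.053 to 0.20 for F11r. For PASMC 0mg over Ctrl the ranges were -0.15 to 0.47 for Cldn3, -0.015 to 0.61 for Cldn7, -0.29 to 0.14 for Tjp3, -0.67 to 0.20 for Cgn, -0.12 to 0.12 for F11r. For PASMC 18mg over 0mg the ranges were -0.39 to 0.22 for Cldn3, -0.13 to 0.40 for Cldn4, -0.35 to 0.28 for Cldn7, -0.19 to 0.18 for Cldn18, -0.15 to 0.015 for Tjp1, -0.28 to 0.13 for Tjp3, -0.18 to 0.60 for Cgn, -0.048 to 0.19 for F11r. For the 18mg response (AECII minus PASMC) the ranges were -0.31 to 0.23 for Cldn3, -0.17 to 0.46 for Cldn4, -0.55 to 0.048 for Cldn7, -0.0041 to 0.13 for Tjp1, -0.079 to 0.25 for Tjp3, -0.35 to 0.45 for Cgn, -0.14 to 0.10 for F11r. For the 0mg response (AECII minus PASMC) the ranges were -0.31 to 0.30 for Cldn3, -0.58 to 0.044 for Cldn7, -0.15 to 0.019 for Tjp1, -0.15 to 0.28 for Tjp3, -0.15 to 0.72 for Cgn, -0.18 to 0.069 for F11r.

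The number of arrays limits these comparisons, and in PASMC the uneven arrays and probes near background limit them further. Intervals in AECII exclude log2 changes beyond -0.70 and 0.53 against control for the gene measured least precisely, Cldn18.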

Other observations

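Claudins outside the 9 genes showed other patterns between the control cultures. Cldn12, a claudin known from many tissues, was 0.29 higher in AECII on the log2 scale, at 9.69 ± 0.11 in AECII and 9.40 ± 0.25 in PASMC (SD, n = 8 each; adjusted p = 0.0215, limma). Cldn23 was higher in AECII by 1.93 as a difference of measured means (adjusted p = 9.19e-08, limma). The levels of Cldn23 were 4.23 ± 0.78 in control AECII, with a lowest array of 3.30, and 2.30 ± 0.31 in control PASMC. The control PASMC mean lay near background, and control AECII arrays reached down to that level. The size of the difference is therefore not settled, and no lower bound is given for it. Cldn5, best known from endothelium, did not pass the test (log2 difference -0.13, adjusted p = 0.846, limma), with 4.94 ± 0.69 in control AECII and 5.07 ± 1.35 in control PASMC.

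Cldn15 had 1 control AECII array apart from the rest. Array 1 read 11.43, and the other 7 arrays lay between 6.31 and 7.58 with a mean of 7.11 ± 0.46 (SD, n = 7). The AECII means were 7.51 ± 0.61 with 18mg, 7.38 ± 0.51 with 0mg and 7.65 ± 1.59 in Ctrl (SD, n = 8 each). This gene was named after its values were seen.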
